A study of Mus musculus with 18 samples.

Results

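Stromal cells of the mouse mammary gland were compared with the MaSC-enriched subset, the basal epithelial fraction in which mammary stem cells (MaSC) are concentrated, over every gene with signal on the array. The contrast was chosen by the sort labels alone and uses 8 of the 18 arrays of the series, 3 stromal and 5 MaSC-enriched. All cells came from female FVB/N mice with no treatment named, glands of 3 to 5 animals were pooled for each preparation, and the cells were depleted of endothelial, blood and red cell lineages (CD31, CD45, TER119) before the sort. The sort plots shown in the study are of virgin females, and an age for the animals on the arrays was not given in the sources used here. Stromal cells were gated as CD29lo CD24- and MaSC-enriched cells as CD29hi CD24+ CD61+, so that CD29 and CD24 separated the groups by design. Pools 1, 2 and 3 gave 1 array of each kind, and pools 4 and 5 gave a MaSC-enriched but no stromal array. Pools 1 to 3 were hybridized in a first batch and pools 4 and 5 in a second, so that all stromal arrays lie in the first. The other 10 arrays, 5 of luminal progenitor and 5 of mature luminal cells, entered the estimate of the spread and served as the outside reference for what the stromal and MaSC-enriched cells had in common.

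The MaSC-enriched fraction is made up mostly of basal cells, which sit on the basement membrane around the luminal layer, carry hemidesmosomes and keratins, and include the contractile myoepithelial cells that eject milk. The CD24-negative stroma that remains after lineage depletion is mainly fibroblasts, which make interstitial collagen and secrete growth factors that guide ductal growth. Both lie outside the luminal layer and touch the same basement membrane from opposite sides.

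Levels are log2 intensities after background correction and quantile normalization by the authors, and a log2 difference of 1 is a 2-fold difference. Values are given in the order of the pools throughout, 1 to 3 for stromal and 1 to 5 for MaSC-enriched arrays. Replicates of a fraction came from separate mouse pools. The background level, read from probes of olfactory and vomeronasal receptors, lay between 5.10 and 5.44. Fitted differences come from a limma model that weights the arrays and treats the pool of mice as a random block. They can therefore differ from differences between group means. The weights were 2.37, 2.88 and 1.22 on the stromal and 1.07, 1.13, 0.771, 0.517 and 0.631 on the MaSC-enriched arrays. Stromal pools 1 and 2 thus counted most in the stromal estimate. A gene was called when the adjusted p passed an FDR of 0.05 and the fold was above 1.5. The deposited values are quantile normalized, so a change in total RNA per cell is not visible.

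Several libraries stood apart from the others of their fraction. The 15 fibroblast markers had a mean level of 13.4 to 13.5 on the stromal arrays, and the 14 basal and myoepithelial markers one of 11.1 to 12.4 on the MaSC-enriched arrays. The lists were chosen with earlier results of these data known, so these means describe the arrays and do not test the labels. MaSC-enriched arrays of pools 3 and 4, however, had raised levels of markers of other cell types. The mean of 18 endothelial markers was 11.6 and 11.1 on these arrays, against 7.98 to 9.09 on the other MaSC-enriched and 8.40 to 9.26 on the stromal arrays. Pecam1, which encodes the CD31 used to deplete endothelium, was at 9.67, 9.69 and 8.21 on the stromal and 9.39, 9.78, 12.67, 11.79 and 7.65 on the MaSC-enriched arrays. Luminal markers (18 genes) were at 11.2 and 10.9 on both arrays, against 8.63 to 8.99 on the other MaSC-enriched arrays, and the milk protein gene Csn2 was at 11.19, 11.28 and 11.73 on the stromal and 11.27, 11.06, 14.73, 14.66 and 11.17 on the MaSC-enriched arrays. Adipocyte markers (7 genes) were at 7.35 and 6.99, against 5.57 to 6.23 on the other MaSC-enriched arrays, and erythroid markers (3 genes) at 8.06 and 7.95, against 6.02 to 7.01. Fibroblast markers were likewise raised there, at 10.6 and 10.8, against 8.41 to 9.46. Among the stromal arrays, pools 1 and 2 held more epithelial signal than pool 3. Their basal marker mean was 8.74 and 8.95, against 7.23 in pool 3, and 10 of the 14 basal markers were above background on all 3 stromal arrays. Ptprc, the gene of the pan-leukocyte antigen CD45, lay at or below background on all 8 arrays (4.57 to 4.94), while 11 of 16 leukocyte markers were above background on every stromal array and 5 of 16 on every MaSC-enriched array. The background level is a low bar for such counts. On each of these 8 arrays 51.2% to 55.2% of all probes passed it, and 9686 of 16324 genes passed it on all 8. Pericyte markers were raised on MaSC-enriched pools 3, 4 and 5, with a mean of 9.003, 9.22 and 9.42, against 7.78 and 7.68 in pools 1 and 2, and Rgs5 was at 9.47, 9.21 and 8.38 on the stromal and 9.32, 9.49, 11.90, 11.82 and 11.36 on the MaSC-enriched arrays. The part of these other cell types in the results below was not tested. The counts over all genes are therefore also given without MaSC-enriched pools 3 and 4, and without stromal pools 1 and 2, and those of a gene list where they moved by over 1.5 times. The latter setting leaves a single stromal array whose spread is assumed to be that of the other groups.

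**Figure D1:**
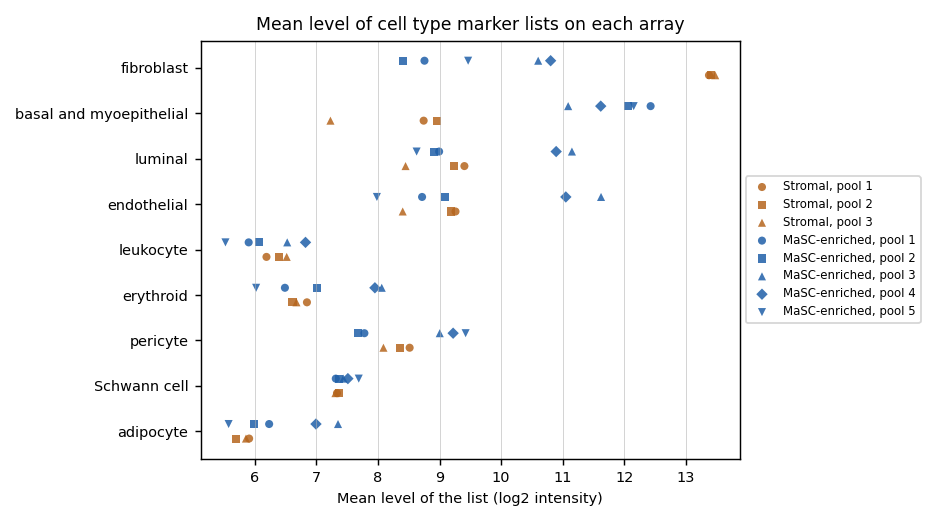
Mean level of each cell type marker list (horizontal axis, log2 intensity) on the 3 stromal (brown) and 5 MaSC-enriched (blue) arrays, with 1 symbol per mouse pool. The stromal arrays share a fibroblast mean of 13.4 to 13.5, and MaSC-enriched pools 3 and 4 lie to the right of the other MaSC-enriched arrays for luminal and endothelial markers.

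The fractions differed in many genes, and in about equal numbers each way. Of 16324 genes tested, 2341 (14.3%) were higher in stromal cells and 2623 (16.1%) were higher in MaSC-enriched cells, and over all probes the counts were 4552 and 4622. These shares over all genes are the reference for the counts of every gene list below. The difference was above 4-fold for 627 and 606 of these genes, and above 16-fold for 144 and 81. In 4748 of the 4964 genes called, pools 1, 2 and 3 each showed the same direction, and in 4027 the stromal and MaSC-enriched arrays did not overlap. The calls rest on these same arrays, so that this agreement is partly built in. Its share over all genes tested was not counted. MaSC-enriched arrays were all at or below background for 71 genes higher in stroma, and stromal arrays for 183 genes higher in the MaSC-enriched subset, so that folds of such genes are given as lower bounds. The stromal arrays varied less, with a median standard deviation per gene of 0.167 (n = 3), against 0.338 for the MaSC-enriched arrays (n = 5) and 0.262 for those of pools 1 to 3. Leaving out MaSC-enriched pools 3 and 4 gave 2376 genes higher and 2621 lower in stroma, and leaving out stromal pools 1 and 2 gave 1717 and 1577. Within the first hybridization batch alone the counts were 2325 and 2568. In this bulk RNA, fewer cells of a type and less RNA per cell cannot be told apart.

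The antigens of the sort did not all separate in their mRNA, and as sort antigens they are described here without being findings. Cd24a, the gene of CD24, was at 5.04, 5.00 and 5.43 on the stromal and 8.42, 7.52, 7.27, 6.62 and 7.63 on the MaSC-enriched arrays. All MaSC-enriched arrays lay above all stromal arrays, by 6.10-fold in the fit (log2 difference -2.61, SE 0.24, adjusted p = 8.15e-08). For Itgb1, the gene of CD29, the levels were 9.04, 8.92 and 8.43 on the stromal and 9.61, 8.96, 8.40, 7.87 and 9.05 on the MaSC-enriched arrays, and the groups overlapped. Its fitted difference of -0.07 had a 95% interval of -0.49 to 0.35, which holds it within 1.5-fold although the surface protein divides the gates. Itgb3, the gene of CD61, was at 6.31, 6.90 and 6.35 on the stromal and 5.55, 5.53, 5.17, 6.04 and 5.57 on the MaSC-enriched arrays. It was higher on every stromal array, by 2.05-fold (adjusted p = 7.95e-05), although CD61 was part of the MaSC-enriched gate and not of the stromal one. Its MaSC-enriched levels were low, with pool 3 at 5.17 against a background of 5.14 on that array. Itga6, which encodes the basal antigen CD49f and was not part of the gate, was 14.7-fold higher in MaSC-enriched cells (adjusted p = 3.31e-09).

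Among genes called, with the same direction in pools 1 to 3 and without overlap, the 12 with the largest positive difference were Ifi205, Scg3, Islr, Smpd3, Akr1c18, Emilin2, Fgf10, Ifi207, Il1r2, Dpp4, Qpct and Abi3bp. Their fitted differences ran from 5.41 to 6.14. Ifi205, an interferon-inducible gene of the p200 family, was at 12.22, 11.80 and 11.22 on the stromal and 6.23, 5.06, 6.65, 4.92 and 4.85 on the MaSC-enriched arrays. Scg3, a secretogranin of secretory granules, was at 12.08, 11.95 and 11.90 on the stromal and 4.77, 5.38, 6.40, 7.996 and 6.55 on the MaSC-enriched arrays. Both were near background on the lowest MaSC-enriched arrays, so that the size of the fold depends on the background level there. Islr, a leucine-rich repeat protein of mesenchymal cells, differed by 57.5-fold (log2 difference 5.85, SE 0.25, adjusted p = 2.25e-12). Dpp4, a cell surface peptidase that marks a class of fibroblasts, was at 13.70, 13.46 and 13.39 on the stromal and 7.53, 7.02, 9.57, 9.70 and 7.71 on the MaSC-enriched arrays. It differed by 45.7-fold (adjusted p = 3.63e-10), and its MaSC-enriched levels were highest in pools 3 and 4. Without those pools the log2 difference of Dpp4 was 6.18, that of Scg3 6.72 and that of Ifi205 6.29. Il1r2, the decoy receptor of interleukin 1, (45.7-fold), Akr1c18, a hydroxysteroid dehydrogenase that inactivates progesterone, (52.5-fold) and Smpd3, a neutral sphingomyelinase, (55.8-fold) were of similar size.

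In the other direction, the 12 largest were Lgals7, Serpinb11, Krt5, Lama1, Cdh3, Col9a2, Moxd1, Irx4, Il17b, Ecrg4, Mia and Krt15, with fitted differences from -4.90 to -5.99. Lgals7, a galectin of stratified epithelia, was at 6.90, 8.57 and 6.48 on the stromal and 13.06, 14.14, 13.47, 13.31 and 13.65 on the MaSC-enriched arrays. It was 63.5-fold higher in MaSC-enriched cells (log2 difference -5.99, SE 0.42, adjusted p = 1.49e-09). Krt5, a basal keratin, was at 7.01, 7.81 and 5.11 on the stromal and 12.69, 12.76, 11.15, 11.98 and 12.57 on the MaSC-enriched arrays. The lowest of its stromal levels was in pool 3, the stromal array with the fewest basal markers, and the lowest MaSC-enriched level was in pool 3 as well. Cdh3, which encodes P-cadherin, was at 6.33, 6.29 and 5.37 on the stromal and 11.92, 11.55, 10.06, 11.48 and 11.55 on the MaSC-enriched arrays, with the MaSC-enriched array of pool 3 again the lowest. Il17b, a cytokine of the interleukin 17 family, was at 5.04, 5.28 and 4.96 on the stromal and 10.74, 9.99, 9.31, 10.80 and 9.58 on the MaSC-enriched arrays, which put the stromal arrays at or near background and gave a 30.9-fold difference (adjusted p = 8.80e-11). Col9a2, a chain of collagen IX (35.6-fold), Moxd1, a relative of dopamine beta-hydroxylase (32.9-fold), Ecrg4, a secreted peptide precursor (30.4-fold), and Mia, a secreted protein first known from melanoma (30.2-fold), completed the group with the basal factor Irx4 and the keratin Krt15.

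**Figure D2:**
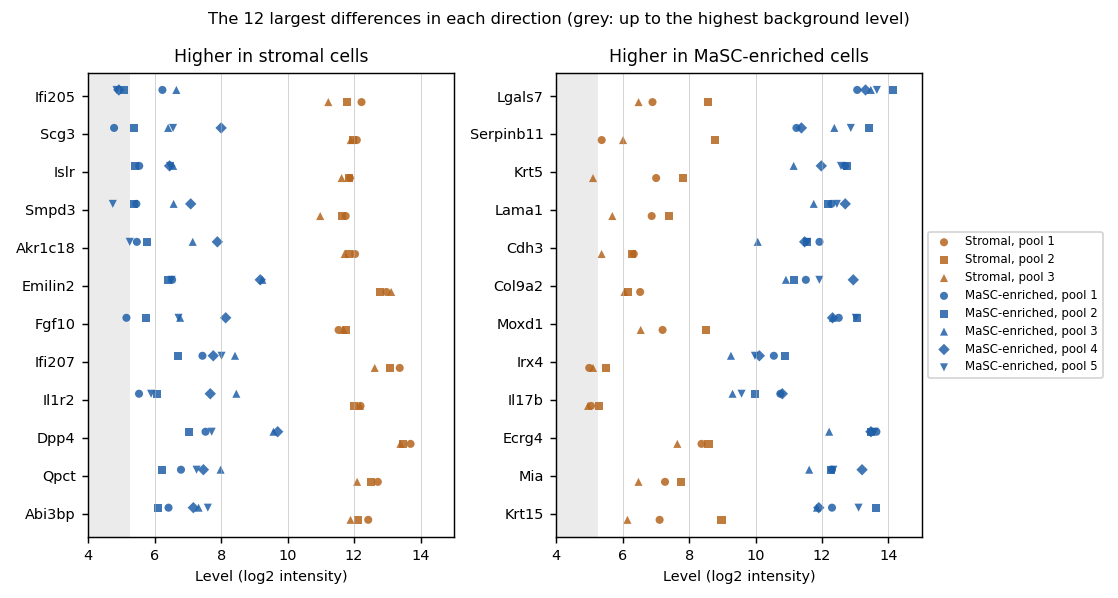
Level on each array (horizontal axis, log2 intensity) of the 12 genes with the largest difference in each direction, stromal arrays in brown and MaSC-enriched arrays in blue, 1 symbol per mouse pool, with grey up to the highest background level of the 8 arrays. The 24 genes were chosen among those without overlap, so the colours separate by selection. Among the stromal markers, MaSC-enriched pools 3 and 4 often lie highest of their fraction, as for Dpp4 and Emilin2.

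Most interstitial collagens were higher in stroma. Of 13 fibrillar and interstitial collagens, 9 were higher in stroma and 1 was lower, with a median log2 difference of 3.18 against -0.03 over all genes tested. Col1a1, a chain of collagen I, was at 13.77, 13.86 and 14.05 on the stromal and 7.45, 7.65, 10.57, 11.51 and 9.13 on the MaSC-enriched arrays. No stromal level overlapped with a MaSC-enriched one, and the fold was 33.9 (log2 difference 5.08, SE 0.51, adjusted p = 1.98e-07). Within the MaSC-enriched fraction, however, Col1a1 spread over more than 4 log2 units, with pools 3 and 4 highest, and without these pools its difference was 5.94. Col1a2, the other chain of collagen I (29.4-fold), Col6a2 (20.4-fold) and Col15a1 (19.96-fold) were also higher in stroma. The exception, Col16a1, was higher in MaSC-enriched cells by 1.56-fold (adjusted p = 0.00472), a call that ended without stromal replicate 1 (log2 difference -0.49) or MaSC-enriched replicate 1 (-0.50), or without stromal pools 1 and 2 (-0.35), so that 0 collagens of the list were lower in stroma there.

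Proteoglycans and elastic fibre proteins were higher in stroma for 16 of 23 genes and lower for 1 (median 1.66). Omd, the keratan sulfate proteoglycan osteomodulin, was at 10.74, 10.25 and 10.48 on the stromal and 5.21, 5.12, 6.25, 5.51 and 4.79 on the MaSC-enriched arrays and differed by 34.3-fold (log2 difference 5.10, SE 0.18, adjusted p = 1.68e-13). Mfap4 (34.3-fold) and Mfap5 (31.9-fold), glycoproteins of microfibrils, and Emilin2, an elastic fibre glycoprotein (47.9-fold), had differences of like size, whereas Fmod, the collagen-binding proteoglycan fibromodulin, was 7.00-fold higher in MaSC-enriched cells (adjusted p = 9.47e-06). Enzymes that modify and cross-link collagen were higher in stroma in 16 of 20 cases and lower in 1 (median 1.61). They included the lysyl oxidases Lox, at 13.25, 12.94 and 13.62 on the stromal and 8.29, 7.15, 10.32, 10.09 and 9.61 on the MaSC-enriched arrays, and Loxl1, with 21.9-fold and 18.9-fold differences, and the procollagen C-proteinase enhancers Pcolce and Pcolce2 (17.0-fold and 30.7-fold). P3h2, a prolyl 3-hydroxylase that acts on collagen IV, went the other way (8.65-fold higher in MaSC-enriched cells). Among matrix proteases and their inhibitors, 14 of 23 were higher in stroma and 1 was lower (median 1.71). Mmp3, stromelysin-1, was at 13.89, 13.68 and 14.31 on the stromal and 8.32, 7.22, 10.84, 10.91 and 8.56 on the MaSC-enriched arrays, a 34.2-fold difference (adjusted p = 1.82e-08), and Htra3 (30.9-fold), Adam12 (13.7-fold) and Adamts12 (12.5-fold) were higher too. Adamts9 was 3.34-fold higher in MaSC-enriched cells. Without MaSC-enriched pools 3 and 4, the counts of these 3 lists were 16, 15 and 14 higher and 1 lower in each. Without stromal pools 1 and 2, 2 matrix proteases or inhibitors were lower in stroma.

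Basement membrane genes were divided between the fractions, with 12 of 24 higher in stroma, 7 higher in MaSC-enriched cells and 5 not called (median 0.61). The shares over all genes were 14.3% and 16.1%. The laminin alpha chains went to opposite sides. Lama2, which is found in mesenchymal and muscle laminins, was at 12.70, 12.44 and 12.40 on the stromal and 6.82, 6.02, 8.11, 8.39 and 7.67 on the MaSC-enriched arrays. Lama1 was at 6.87, 7.38 and 5.69 on the stromal and 12.28, 12.18, 11.75, 12.70 and 12.45 on the MaSC-enriched arrays. Each was separated without overlap, by 40.9-fold toward stroma (adjusted p = 7.84e-10) and by 39.7-fold toward the MaSC-enriched cells (adjusted p = 1.64e-09). With Lama1, the MaSC-enriched subset was higher in Lama5 (13.5-fold) and in Lamb3, a chain of the laminin that anchors hemidesmosomes (24.8-fold), in the collagen IV chains Col4a5 and Col4a6 (3.10-fold and 14.3-fold), in Col7a1, the collagen of anchoring fibrils (6.502-fold), and in the proteoglycan Agrn (2.24-fold). Stromal cells were higher in Nid1 (21.2-fold), the linker nidogen-1, which was at 14.01, 14.01 and 13.99 on the stromal and 9.07, 8.67, 10.87, 11.22 and 9.34 on the MaSC-enriched arrays. The major collagen IV chains Col4a1 and Col4a2 were alike within 2-fold, with log2 differences of 0.05 (95% interval -0.65 to 0.75) and -0.16 (-0.97 to 0.65).

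**Figure D3:**
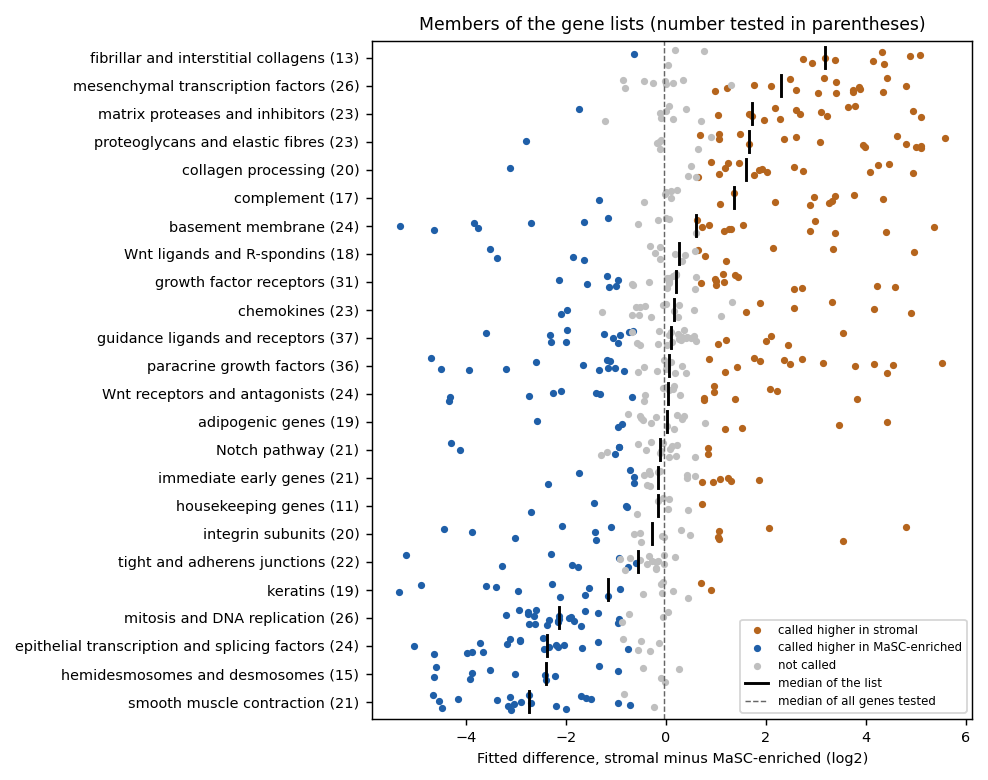
Fitted log2 difference between stromal and MaSC-enriched cells (horizontal axis, positive where stromal is higher) for every tested member of each gene list, brown for genes called higher in stromal and blue for genes called higher in MaSC-enriched cells, with the list median as a black bar and the median of all genes as a dashed line. Collagens lie at the top with a median of 3.18 and contractile genes at the bottom with a median of -2.75.

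Integrins, the receptors for matrix, were called in both directions. Of 20 integrin subunits, 6 were higher in stroma and 7 in MaSC-enriched cells, against 14.3% and 16.1% of all genes. The other 7 were not called. Itga11, a collagen-binding subunit of fibroblasts, was at 13.70, 13.66 and 13.47 on the stromal and 8.29, 7.77, 9.77, 9.87 and 9.71 on the MaSC-enriched arrays and differed by 27.99-fold (adjusted p = 3.93e-09). Itga3, which pairs with beta 1 to bind laminin, was at 7.71, 7.91 and 6.61 on the stromal and 12.18, 12.16, 11.67, 11.77 and 12.09 on the MaSC-enriched arrays, a 21.7-fold difference toward MaSC-enriched cells (adjusted p = 4.86e-12). Neither overlapped between the groups. Itgb7 (11.7-fold), Itga2b (4.20-fold), Itga5 (2.09-fold) and Itgb5 (2.08-fold) were also higher in stroma, and the call of Itga5 ended without stromal pools 1 and 2 (0.77).

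Every epithelial attachment gene that was called was higher in MaSC-enriched cells. Of 15 hemidesmosome and desmosome genes 11 were lower in stroma and 4 were not called (median -2.40). Of 22 tight and adherens junction genes 8 were lower and 14 were not called (median -0.55), and 6 of the 22 were alike within 2-fold. Only genes above background on all 8 arrays could be alike, and 16 of the 22 were above it on every stromal array. Of all genes above it on all 8 arrays, 56.6% were alike. Pkp1, a desmosomal plakophilin, was at 5.75, 6.18 and 5.29 on the stromal and 11.13, 10.79, 9.49, 9.69 and 10.65 on the MaSC-enriched arrays, a 25.0-fold difference (log2 difference -4.64, SE 0.26, adjusted p = 5.96e-11). Col17a1, the transmembrane collagen of hemidesmosomes, was at 9.21, 9.95 and 7.23 on the stromal and 14.09, 13.87, 13.04, 13.34 and 13.86 on the MaSC-enriched arrays, with the lowest stromal level in pool 3, and differed by 24.3-fold (adjusted p = 1.62e-06). Pkp3 was 15.1-fold higher in MaSC-enriched cells. Cdh1, which encodes E-cadherin, was at 9.60, 9.44 and 7.44 on the stromal and 11.45, 11.30, 11.59, 11.17 and 11.23 on the MaSC-enriched arrays. The stromal arrays of pools 1 and 2 lay about 2 log2 units above that of pool 3, and the difference of 4.92-fold (adjusted p = 1.29e-05) was -3.91 on the log2 scale when only the stromal array of pool 3 was kept. Epcam, an epithelial adhesion molecule, was at 5.54, 5.69 and 5.61 on the stromal and 7.85, 7.599, 7.67, 5.65 and 7.08 on the MaSC-enriched arrays. Its MaSC-enriched array of pool 4 fell within the stromal range, and its 3.69-fold difference (adjusted p = 1.63e-04) was no longer called with the single stromal array of pool 3 (log2 difference -1.69). F11r, the junctional adhesion molecule JAM-A, was at 5.73, 6.34 and 5.26 on the stromal and 9.52, 8.64, 9.52, 9.35 and 8.83 on the MaSC-enriched arrays, a 9.65-fold difference without overlap (adjusted p = 1.90e-09). Without MaSC-enriched pools 3 and 4, 11 and 7 members of the lists were lower in stroma and 1 hemidesmosome or desmosome gene was higher.

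The promoters of junction genes are shown because repressors of epithelial adhesion, of the Snail and Zeb families, recognize a short E-box, CACCTG on either strand (CAGGTG on the other), and because these repressors were measured on the same arrays. Of the 19 hemidesmosome, desmosome and junction genes lower in stroma, 9 had a promoter in the RefSeq-derived table (mouse build GRCm38.p6), and in 6 of them (Cd151, Dst, Epcam, F11r, Ocln and Pkp4) the 250 bases before a listed start held this E-box. Over all 27025 genes in the table the share was 19.4%, and a gene with several listed starts has more chances of a match. The 250 bases before the start of Epcam and of F11r are printed with the E-box in capitals.
Epcam, chr17:87635729-87635978 (plus strand): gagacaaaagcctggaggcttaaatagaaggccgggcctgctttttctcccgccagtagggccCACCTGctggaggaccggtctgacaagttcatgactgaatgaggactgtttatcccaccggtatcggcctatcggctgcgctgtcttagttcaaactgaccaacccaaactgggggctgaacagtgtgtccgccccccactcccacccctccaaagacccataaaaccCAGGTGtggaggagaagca
F11r, chr1:171437311-171437560 (plus strand): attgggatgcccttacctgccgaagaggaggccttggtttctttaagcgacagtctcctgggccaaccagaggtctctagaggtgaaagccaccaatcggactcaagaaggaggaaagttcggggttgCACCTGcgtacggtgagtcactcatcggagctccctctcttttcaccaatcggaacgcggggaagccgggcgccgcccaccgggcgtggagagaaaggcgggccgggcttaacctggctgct
The matches began 187 and 19 bases before the start in Epcam and 122 bases before it in F11r. A match describes the letters only, and binding was not measured.

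Most keratins were higher in MaSC-enriched cells. Of 19 keratins, 11 were higher in MaSC-enriched cells and 2, Krt20 and Krt10, were higher in stroma by 1.86-fold and 1.63-fold. Over all genes 16.1% and 14.3% were. The lowest MaSC-enriched levels of Krt20 were 4.56 and 5.04, at or below background, so that the size of its fold depends on the background level. Krt17 was at 11.61, 11.80 and 8.27 on the stromal and 14.37, 14.68, 14.16, 14.50 and 14.62 on the MaSC-enriched arrays (10.5-fold), with stromal pools 1 and 2 more than 3 log2 units above pool 3. Krt16, at 4.75, 4.93 and 4.70 on the stromal and 8.98, 8.76, 6.24, 8.79 and 10.75 on the MaSC-enriched arrays, was at or below background on every stromal array and at least 11.8-fold higher in MaSC-enriched cells (adjusted p = 2.10e-05). Krt14, the partner of Krt5, was at 12.74, 12.68 and 10.06 on the stromal and 14.46, 14.32, 14.63, 14.87 and 14.44 on the MaSC-enriched arrays. Every MaSC-enriched level lay above every stromal one, and the stromal levels were well above background, most of all in pools 1 and 2. Without MaSC-enriched pools 3 and 4 the counts were 8 and 1, without stromal pools 1 and 2 they were 10 and 1, and the call of Krt10 ended without MaSC-enriched replicate 2 (0.66) or 3 (0.58) or stromal replicate 3 (0.62).

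Of 21 genes of smooth muscle contraction, 19 were higher in MaSC-enriched cells and none was higher in stroma (median -2.75). Actg2, smooth muscle gamma-actin, was at 8.89, 9.75 and 6.60 on the stromal and 13.83, 13.82, 12.02, 13.39 and 14.05 on the MaSC-enriched arrays. The stromal arrays of pools 1 and 2 lay between pool 3 and the MaSC-enriched arrays, and the fit gave a 25.2-fold difference (log2 difference -4.66, SE 0.64, adjusted p = 1.12e-05). Myh11, smooth muscle myosin, was at 9.69, 9.47 and 7.13 on the stromal and 14.18, 13.22, 12.57, 13.93 and 14.24 on the MaSC-enriched arrays, a 23.1-fold difference (adjusted p = 3.60e-05). Tagln, transgelin, was at 7.33, 7.40 and 6.17 on the stromal and 12.20, 11.85, 9.96, 11.82 and 12.33 on the MaSC-enriched arrays (22.3-fold), with MaSC-enriched pool 3 lowest. Kcnmb1, a subunit of the calcium-activated potassium channel of smooth muscle, was close to background in stroma, at 5.19 to 5.34, and 17.8-fold higher in MaSC-enriched cells. Acta2, alpha smooth muscle actin, was at 14.08, 14.05 and 12.71 on the stromal and 14.59, 14.42, 14.78, 14.78 and 14.67 on the MaSC-enriched arrays with every MaSC-enriched array above every stromal one, and was not called (log2 difference -0.83, 95% interval -1.73 to 0.07). The hormone receptor through which oxytocin triggers contraction, Oxtr, was at 4.91, 5.01 and 4.70 on the stromal and 9.67, 8.55, 5.82, 5.75 and 7.53 on the MaSC-enriched arrays. It was at or below background on every stromal array, and in MaSC-enriched pools 3 and 4 it was only a little above, and the fold was at least 5.03 toward MaSC-enriched cells (adjusted p = 3.50e-05). The serum response factor site called the CArG box, which drives contractile genes, was searched in the 250 bases before the start of the 15 contractile genes of this group with a listed promoter. A perfect match was found in 1 of them, Myl9, against 1.62% of all 27025 genes.
Myl9, chr2:156775214-156775463 (plus strand): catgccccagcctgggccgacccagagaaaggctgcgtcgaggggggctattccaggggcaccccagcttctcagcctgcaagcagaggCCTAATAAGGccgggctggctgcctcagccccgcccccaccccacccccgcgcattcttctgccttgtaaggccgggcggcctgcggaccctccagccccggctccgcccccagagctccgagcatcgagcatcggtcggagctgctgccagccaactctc
The CArG box is in capitals and begins 161 bases before the start. Myl9, a myosin light chain of smooth muscle, was at 11.14, 10.96 and 10.84 on the stromal and 14.40, 13.87, 12.68, 13.90 and 14.44 on the MaSC-enriched arrays and was 7.48-fold higher in MaSC-enriched cells (adjusted p = 1.61e-04).

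Every mesenchymal factor that was called was higher in stroma, and every epithelial one in MaSC-enriched cells. Of 26 mesenchymal factors, 17 were higher in stroma and none was lower (median 2.30), and of 24 epithelial transcription and splicing factors 19 were lower in stroma and none was higher (median -2.38). Osr2, an odd-skipped factor of mesenchyme, was at 14.28, 14.04 and 13.88 on the stromal and 8.67, 8.20, 10.43, 10.41 and 10.07 on the MaSC-enriched arrays. Twist2, a bHLH factor, was at 11.09, 11.16 and 11.27 on the stromal and 6.18, 6.13, 7.31, 7.93 and 7.96 on the MaSC-enriched arrays. Neither overlapped between the groups, and MaSC-enriched pools 1 and 2 were lowest in both, with differences of 27.97-fold (adjusted p = 1.36e-08) and 20.4-fold (adjusted p = 1.80e-10). Ebf2, a factor of mesenchymal and adipocyte precursors, was 21.4-fold higher in stroma. Tbx15, at 8.94, 8.88 and 9.01 on the stromal and 4.92, 5.12, 4.97, 5.10 and 5.05 on the MaSC-enriched arrays, was at or below background on all MaSC-enriched arrays and at least 13.7-fold higher in stroma (adjusted p = 1.96e-14). The repressors that bind the E-box were divided. Zeb1 was at 11.91, 11.85 and 12.01 on the stromal and 7.51, 7.63, 10.05, 9.74 and 9.23 on the MaSC-enriched arrays and Zeb2 at 11.65, 11.27 and 11.37 on the stromal and 7.53, 7.59, 9.73, 9.28 and 9.27 on the MaSC-enriched arrays, 10.6-fold and 8.19-fold higher in stroma, and in both the MaSC-enriched arrays of pools 3 to 5 lay above those of pools 1 and 2. Snai2, in contrast, was at 9.98, 10.29 and 10.62 on the stromal and 11.32, 11.34, 10.47, 10.84 and 11.002 on the MaSC-enriched arrays and was not called (log2 difference -0.81, SE 0.35, adjusted p = 0.0977). Without MaSC-enriched replicate 3, or without pools 3 and 4, Snai2 was called higher in the MaSC-enriched subset (log2 difference -1.07 without replicate 3 and -1.19 without both pools). Without pools 3 and 4, 18 mesenchymal factors were higher and 2 lower in stroma, and with the single stromal array of pool 3 the counts were 15 and 1.

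On the epithelial side, Irx4, an Iroquois homeobox factor, was at 4.99, 5.50 and 5.11 on the stromal and 10.55, 10.89, 9.26, 10.11 and 9.98 on the MaSC-enriched arrays, at or near background in stroma and 32.7-fold higher in MaSC-enriched cells (adjusted p = 2.89e-10). Trp63, the p63 factor of basal epithelia, was at 8.46, 9.46 and 7.58 on the stromal and 13.65, 13.61, 13.15, 13.05 and 12.82 on the MaSC-enriched arrays. It was 25.0-fold higher in MaSC-enriched cells (adjusted p = 6.76e-06), although its level on stromal arrays was above background. Tfap2a and Tfap2c, AP-2 factors of epithelia, were 14.7-fold and 15.7-fold higher in MaSC-enriched cells, Id4, an inhibitor of bHLH factors, 9.07-fold and Sox11 4.93-fold. Mef2c, Egr2 and Tbx2, factors of the MADS-box, zinc finger and T-box families, did not pass the thresholds. Mef2c was at 10.51, 10.19 and 9.94 on the stromal and 10.69, 10.02, 10.81, 10.57 and 10.79 on the MaSC-enriched arrays, Egr2 at 13.55, 13.41 and 13.77 on the stromal and 14.10, 14.08, 13.13, 13.38 and 12.77 on the MaSC-enriched arrays and Tbx2 at 7.11, 7.67 and 8.28 on the stromal and 7.69, 8.33, 8.04, 8.21 and 8.66 on the MaSC-enriched arrays. The interval of the difference was within 2-fold for Egr2 (-0.58 to 0.27) but not for Mef2c (-1.14 to 0.61) or Tbx2 (-1.07 to -0.03), and Tbx2 was called higher in the MaSC-enriched subset without stromal replicate 3 (log2 difference -0.70). Vim, the intermediate filament of mesenchyme, was at 14.56, 14.15 and 13.98 on the stromal and 12.55, 11.87, 12.84, 12.22 and 12.71 on the MaSC-enriched arrays, high in both fractions and 3.68-fold higher in stroma (adjusted p = 1.19e-04), a call that ended without stromal pools 1 and 2 (1.28).

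Secreted growth factors and their receptors were spread over both fractions. Some ligands and receptors lay on opposite sides, and the pairs given for this were picked with their values known. Others lay on the same side. Fgf1, Fgfr2 and Fgfr3 were all higher in MaSC-enriched cells (log2 differences -2.60, -2.13 and -0.96), as were Bmp7 and Bmpr1b (-1.17 and -1.18). Of 36 paracrine factors, 14 were higher in stroma and 12 in MaSC-enriched cells, and of 31 receptors 12 and 6 were. The shares over all genes were 14.3% and 16.1%. Fgf10, a fibroblast growth factor required for mammary bud and duct growth, was at 11.53, 11.77 and 11.68 on the stromal and 5.15, 5.72, 6.76, 8.13 and 6.71 on the MaSC-enriched arrays. Its receptor gene Fgfr2 was at 11.15, 11.06 and 10.32 on the stromal and 13.30, 13.10, 12.83, 13.04 and 12.90 on the MaSC-enriched arrays. The ligand was 46.1-fold higher in stroma (adjusted p = 1.90e-11) and the receptor 4.38-fold higher in MaSC-enriched cells (adjusted p = 4.19e-08), and the luminal means of the receptor were higher still, at 13.42 in progenitor and 14.18 in mature cells. The ligands Pdgfa and Pdgfb were 9.20-fold and 15.2-fold higher in MaSC-enriched cells. The receptors Pdgfra and Pdgfrb were 23.9-fold and 6.63-fold higher in stroma. Pdgfra was at 13.90, 13.80 and 14.02 on the stromal and 8.74, 8.23, 10.60, 11.24 and 9.15 on the MaSC-enriched arrays, with no overlap. Bdnf, a neurotrophin, was at 6.82, 7.50 and 5.98 on the stromal and 12.09, 12.19, 10.31, 11.31 and 11.45 on the MaSC-enriched arrays, and its receptor gene Ntrk2 was at 12.01, 11.54 and 12.14 on the stromal and 6.92, 6.51, 8.28, 8.71 and 9.53 on the MaSC-enriched arrays. They differed in opposite directions, by 26.0-fold toward MaSC-enriched cells (adjusted p = 1.18e-09) and by 18.5-fold toward stroma (adjusted p = 2.03e-08). Interaction of these products was not measured.

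Nrg1, a ligand of ERBB receptors, was at 5.16, 5.36 and 4.97 on the stromal and 9.26, 9.58, 10.13, 9.18 and 11.04 on the MaSC-enriched arrays, close to background in stroma and 22.7-fold higher in MaSC-enriched cells (adjusted p = 1.25e-10). Gdf10, a BMP-related factor, was 23.2-fold higher in stroma, and the TGF-beta receptor gene Tgfbr2 5.89-fold. Fgf1 (6.06-fold), Hbegf, an EGF receptor ligand (3.18-fold), Pdgfc (2.54-fold) and Ccn2, connective tissue growth factor (2.18-fold), were higher in MaSC-enriched cells, as were the receptors Lifr (2.98-fold), Osmr (2.21-fold), Bmpr1b (2.27-fold) and Fgfr3 (1.94-fold). Calls of Bmp7, Inhba, Kitl, Tgfb1 and Ntrk3 toward MaSC-enriched cells each ended without at least 1 single array. Kitl fell short without MaSC-enriched replicate 1 (-0.73), Tgfb1 without stromal replicate 2 (-0.63), Bmp7 without MaSC-enriched replicate 1 (-0.99) or 2 (-0.87) or stromal replicate 2 (-0.996), and Ntrk3 without MaSC-enriched replicate 1 (-0.56) or stromal replicate 2 (-0.86). Inhba fell short without stromal replicate 1, 2 or 3 or MaSC-enriched replicate 3, 4 or 5 (-0.79 to -1.05). Without MaSC-enriched pools 3 and 4 the paracrine counts were 14 and 10, and with the single stromal array of pool 3 they were 10 and 9. The receptor counts were 12 and 6 in the former case and 6 and 4 in the latter.

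Wnt genes were likewise divided. Of 18 Wnt ligands and R-spondins, 6 were higher in stroma and 4 in MaSC-enriched cells, and of 24 Wnt receptors and antagonists 8 were higher in each. The shares over all genes were 14.3% and 16.1%. Wnt2 was at 12.37, 12.42 and 12.43 on the stromal and 6.71, 6.95, 8.82, 8.57 and 6.82 on the MaSC-enriched arrays and Wnt10b at 8.51, 8.75 and 8.58 on the stromal and 5.10, 5.23, 5.17, 5.21 and 6.10 on the MaSC-enriched arrays, with differences of 31.2-fold (adjusted p = 9.65e-11) and 10.1-fold (adjusted p = 8.37e-12) toward stroma. Wnt6 was at 6.71, 7.37 and 5.95 on the stromal and 9.97, 10.70, 9.67, 10.25 and 10.79 on the MaSC-enriched arrays and Wnt10a at 7.82, 8.21 and 6.12 on the stromal and 11.84, 11.72, 9.55, 9.84 and 12.06 on the MaSC-enriched arrays, with differences of 10.4-fold (adjusted p = 1.41e-07) and 11.5-fold (adjusted p = 5.02e-06) toward MaSC-enriched cells. No array of one fraction reached the range of the other for these 4 ligands. Wnt5b and Wnt7b were 3.65-fold and 3.13-fold higher in MaSC-enriched cells. Among the antagonists, Sfrp2 was 14.1-fold higher in stroma and Wif1 20.3-fold higher in MaSC-enriched cells. The R-spondin receptors Lgr5 and Lgr6 were higher in MaSC-enriched cells. Lgr6 was at 5.25, 5.75 and 5.06 on the stromal and 9.91, 10.43, 8.92, 9.50 and 9.66 on the MaSC-enriched arrays, a 19.98-fold difference (adjusted p = 3.02e-09). Lgr5 was at 7.58, 6.504 and 6.57 on the stromal and 11.32, 10.59, 6.99, 7.39 and 9.91 on the MaSC-enriched arrays. Its levels in MaSC-enriched pools 3 and 4 fell within the stromal range while those of pools 1, 2 and 5 lay above it, and the log2 difference moved from -2.75 to -3.87 without pools 3 and 4 and was no longer called without stromal pools 1 and 2 (-2.59). With that single stromal array, 4 Wnt receptors and antagonists were called in each direction.

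**Figure D4:**
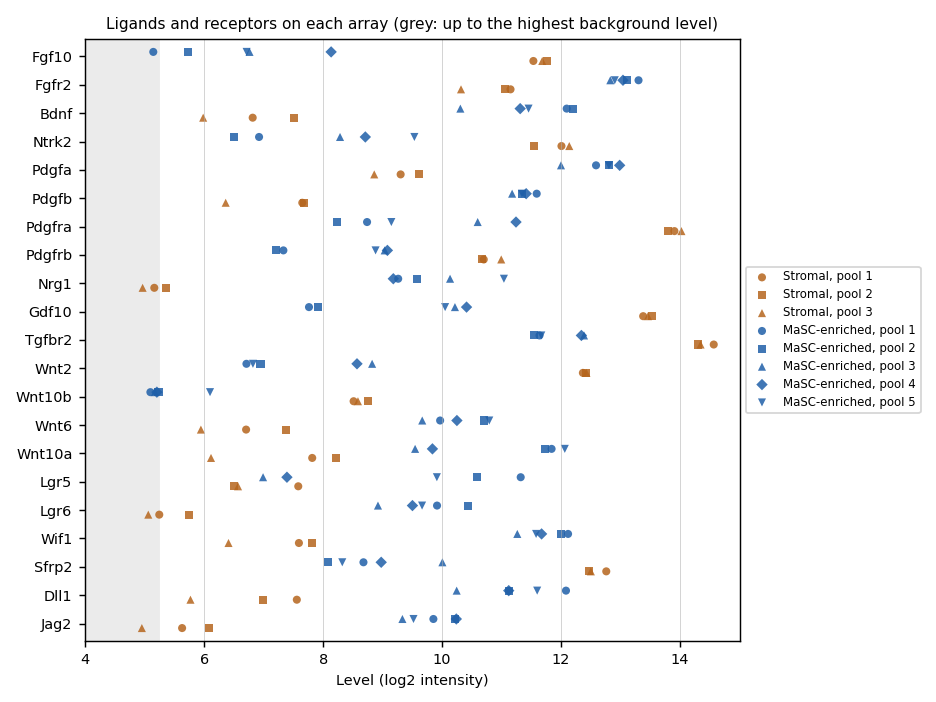
Level on each array (horizontal axis, log2 intensity) of selected ligands, receptors and antagonists, stromal arrays in brown and MaSC-enriched arrays in blue, 1 symbol per mouse pool, with grey up to the highest background level of the 8 arrays. Fgf10 and Fgfr2, Bdnf and Ntrk2, and the Pdgf ligands and their receptors lie in opposite order, and Lgr5 in MaSC-enriched pools 3 and 4 lies among the stromal arrays.

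Most genes of the Notch pathway were not called. Of 21 genes, 2 were higher in stroma and 5 in MaSC-enriched cells, against 14.3% and 16.1% of all genes. Dll1 was at 7.56, 6.99 and 5.77 on the stromal and 12.08, 11.13, 10.24, 11.12 and 11.60 on the MaSC-enriched arrays and Jag2 at 5.63, 6.08 and 4.95 on the stromal and 9.85, 10.21, 9.33, 10.24 and 9.52 on the MaSC-enriched arrays. The ligands were 19.8-fold (adjusted p = 1.43e-08) and 17.5-fold (adjusted p = 2.05e-09) higher in MaSC-enriched cells with no overlap, and the other differences were about 2-fold or less. Notch2 was at or below background on all MaSC-enriched arrays and at least 1.37-fold higher in stroma. The calls of Notch3, Hey1 and Heyl each ended without single arrays. Heyl, higher in stroma, fell short without MaSC-enriched replicate 1 (0.52) or 2 (0.66). Hey1 fell short without MaSC-enriched replicate 3 (-0.46) or 4 (-0.79) or stromal replicate 3 (-0.78), and Notch3 without stromal replicate 2 or 3 or MaSC-enriched replicate 3, 4 or 5 (-0.71 to -1.04). Without MaSC-enriched pools 3 and 4, 2 genes of the pathway were called in each direction, and without stromal pools 1 and 2 the counts were 1 and 2. Notch3 is also a pericyte gene, and it was highest in pools 3, 4 and 5, at 8.61, 8.5 and 8.54 on the stromal and 8.38, 8.81, 10.79, 10.45 and 11.03 on the MaSC-enriched arrays.

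Among 37 guidance ligands and receptors, 6 were higher in stroma and 11 in MaSC-enriched cells, against 14.3% and 16.1% of all genes, and 20 were not called. Epha3 was 11.7-fold higher in stroma and Epha2 12.04-fold higher in MaSC-enriched cells, both ephrin receptors. Slit3, a secreted guidance cue, was at 12.55, 12.65 and 12.57 on the stromal and 10.34, 9.81, 9.91, 10.19 and 10.57 on the MaSC-enriched arrays, a 5.46-fold difference toward stroma (adjusted p = 7.29e-08). Sema3e (3.98-fold), Sema3a (2.31-fold) and the semaphorin and VEGF coreceptor Nrp1 (4.30-fold) were higher in stroma as well. Nrp1 reached 12.60 and 12.40 in MaSC-enriched pools 3 and 4, the arrays with endothelial markers, and its call ended without stromal pools 1 and 2 (1.33). Slit2 (2.07-fold) lost its call without stromal replicate 2 (1.02) or MaSC-enriched replicate 3 (0.74). Ephb6 was at or below background in stroma and at least 4.19-fold higher in MaSC-enriched cells.

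Of 17 complement genes, 10 were higher in stroma and 1 was lower (median 1.36). Cd55, a brake on complement at the cell surface, was at 12.60, 12.44 and 12.28 on the stromal and 7.95, 7.37, 9.88, 8.46 and 7.12 on the MaSC-enriched arrays, a 20.3-fold difference (adjusted p = 7.87e-09), and the protease genes C1s1 (13.5-fold), C2 (10.5-fold) and Cfb (9.95-fold) went with it. Cd59a, another such brake, was 2.55-fold higher in MaSC-enriched cells. Of 23 chemokines, 6 were higher and 2 lower in stroma, against 14.3% and 16.1% of all genes, and 15 were not called. Cxcl13, a B-cell attractant, was at 12.81, 11.94 and 11.89 on the stromal and 7.71, 5.62, 7.99, 7.96 and 8.86 on the MaSC-enriched arrays, a 30.0-fold difference (adjusted p = 1.39e-08). Ccl8 (17.8-fold), the eotaxin gene Ccl11 (9.94-fold) and Ccl7 (5.88-fold) were also stromal, while Cxcl14 (4.28-fold) and Cx3cl1 (3.97-fold) were higher in MaSC-enriched cells, of which Cxcl14 lost its call without stromal pools 1 and 2 (-2.10), when 4 chemokines were higher and 1 was lower. Of 16 leukocyte markers 2 were called, Cd79b and Cd3e, both higher in stroma, against 14.3% of all genes. Cd3e lost its call without stromal pools 1 and 2 (1.12), which left 1. The mean of the list was 6.19 to 6.52 on stromal and 5.52 to 6.82 on MaSC-enriched arrays, and the part of leukocytes in these results was not tested.

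Of 19 adipogenic genes, 4 were higher in stroma and 3 in MaSC-enriched cells, against 14.3% and 16.1% of all genes. The mean of the list was 8.87 and 8.62 on MaSC-enriched pools 3 and 4, against 7.58 to 7.63 on the other MaSC-enriched and 8.12 to 8.38 on the stromal arrays, and the part of these arrays in the calls was not tested. Lpl, lipoprotein lipase, was at 14.84, 14.87 and 14.90 on the stromal and 10.53, 10.68, 13.00, 12.97 and 11.36 on the MaSC-enriched arrays and was 11.1-fold higher in stroma (adjusted p = 5.92e-07). Dgat2, an enzyme of triglyceride synthesis, was 5.95-fold higher in MaSC-enriched cells, and the hormone gene Lep was at 5.46, 5.10 and 5.70 on the stromal and 9.62, 7.44, 7.28, 8.12 and 8.58 on the MaSC-enriched arrays, 7.13-fold higher in MaSC-enriched cells (adjusted p = 5.80e-06). The mature adipocyte markers Adipoq, Plin1, Fabp4 and Cidec were not called. Pparg was 2.86-fold higher in stroma, a call that ended without stromal replicate 1 (1.33) or 2 (1.38) or MaSC-enriched replicate 1 (0.85) or 2 (1.03), and its levels of 10.96 and 10.71 in MaSC-enriched pools 3 and 4 exceeded the stromal ones.

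A few markers went against the fraction that their list names. Aldh1a3 and Esr1, counted here among luminal markers, were 18.04-fold and 6.26-fold higher in stroma. Aldh1a3, a retinaldehyde dehydrogenase, was at 11.55, 11.46 and 11.31 on the stromal and 6.85, 6.74, 8.45, 8.32 and 7.35 on the MaSC-enriched arrays, and Esr1, the estrogen receptor, at 10.94, 10.89 and 10.69 on the stromal and 8.07, 7.93, 9.13, 8.56 and 7.11 on the MaSC-enriched arrays. On both, the stromal levels lay above every MaSC-enriched level, and luminal means were 10.17 and 9.45 for Aldh1a3 and 10.37 and 10.88 for Esr1 in progenitor and mature cells. Krt8 was 4.32-fold higher in MaSC-enriched cells. Krt18 (2.91-fold) was no longer called without MaSC-enriched pools 3 and 4 (-0.86). Of the 18 luminal markers, 2 were higher and 4 lower in stroma, with 2 lower without MaSC-enriched pools 3 and 4 and 7 lower without stromal pools 1 and 2. Over all genes in the main fit, 14.3% were higher and 16.1% lower in stroma. Tek, an angiopoietin receptor counted among 18 endothelial markers, was at 12.96, 12.62 and 12.56 on the stromal and 8.79, 8.79, 11.95, 10.93 and 7.63 on the MaSC-enriched arrays. It was 9.47-fold higher in stroma (adjusted p = 6.45e-05), whereas the endothelial genes Cdh5, at 8.77, 8.63 and 7.63 on the stromal and 8.42, 8.67, 11.93, 11.56 and 7.71 on the MaSC-enriched arrays, and Emcn, at 10.14, 10.02 and 8.65 on the stromal and 9.82, 10.30, 13.33, 12.63 and 9.16 on the MaSC-enriched arrays, were not called and had their highest levels in MaSC-enriched pools 3 and 4. Ramp2 was the only other endothelial marker called (3.79-fold higher in stroma), and it lost its call without MaSC-enriched replicate 1 (1.42). With the single stromal array of pool 3, neither was called (Tek 2.48, Ramp2 1.22) and 2 endothelial markers were lower in stroma. Sox10, a neural crest factor, was at 8.63, 9.12 and 7.30 on the stromal and 12.14, 12.28, 12.07, 12.45 and 11.85 on the MaSC-enriched arrays and was 11.7-fold higher in MaSC-enriched cells (adjusted p = 5.52e-08), while the Schwann cell markers Mbp (4.19-fold) and Pmp22 (2.01-fold) were higher in stroma. S100b was at or below background on all MaSC-enriched arrays and at least 1.86-fold higher in stroma. Among 10 pericyte markers, Anpep (4.11-fold), Abcc9 (3.84-fold), Pdgfrb and Kcnj8 were higher in stroma and Mcam (8.29-fold), Notch3 and Des were higher in MaSC-enriched cells. Des, at 7.61, 6.98 and 6.39 on the stromal and 8.11, 8.03, 8.96, 9.01 and 11.07 on the MaSC-enriched arrays, was highest in MaSC-enriched pool 5 and lost its call without stromal replicate 3 (-1.27). Without stromal pools 1 and 2, 1 pericyte marker was higher and 2 were lower in stroma.

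Most genes of cell division on the list were lower in stroma. Of 26 genes of mitosis and DNA replication, 22 were higher in MaSC-enriched cells and none in stroma (median -2.14). Cdk1, the mitotic kinase, was at 5.81, 8.14 and 7.15 on the stromal and 8.85, 11.46, 10.65, 9.98 and 10.54 on the MaSC-enriched arrays. Every MaSC-enriched level was above every stromal one, with MaSC-enriched pool 1 lowest, and the fit gave 9.23-fold (log2 difference -3.21, SE 0.51, adjusted p = 5.88e-05). Aurka (7.66-fold), Bub1b (6.81-fold) and Cdc20 (6.81-fold), all of the mitotic spindle and its checkpoint, showed the same order. The list mean was 6.91 to 7.81 on stromal arrays and 8.19 to 10.1 on MaSC-enriched arrays. Leaving out MaSC-enriched pools 3 and 4 left 21 members called, and keeping only the stromal array of pool 3 left 18.

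Immediate early genes, which dissociation of tissue can induce, were high in both fractions. Their list mean was 12.2 to 12.3 in stroma and 11.8 to 12.3 in MaSC-enriched cells, and 11 of 21 were alike within 2-fold. Only genes above background on all 8 arrays could be alike, and 19 of the list were above it. Of all such genes, 56.6% were alike. Of the 21, 6 were higher in stroma and 5 in MaSC-enriched cells, against 14.3% and 16.1% of all genes. Klf2 (3.61-fold) and Klf4 (2.46-fold), Krüppel-like factors, were higher in stroma and Nr4a2 (5.17-fold) and Egr3 (3.33-fold) in MaSC-enriched cells. Atf3 lost its call without MaSC-enriched replicate 2 (-0.56), Ier3 without replicate 3 of either fraction (-0.58 for each), and Nr4a1 without stromal replicate 1, 2 or 3 or MaSC-enriched replicate 2 or 3 (-0.35 to -0.68). Among 11 housekeeping genes 6 were alike, and Gapdh, at 11.79, 12 and 11.84 on the stromal and 13.07, 13.48, 13.37, 13.29 and 13.62 on the MaSC-enriched arrays, was 2.73-fold higher in MaSC-enriched cells (adjusted p = 2.62e-08). Tfrc, the transferrin receptor (6.53-fold), Hprt (1.74-fold) and Pgk1 (1.72-fold) were in the same direction, and Gusb (1.65-fold) was higher in stroma, though no housekeeping gene was without stromal pools 1 and 2.

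What the fractions share was measured by intervals, because a p above the threshold does not show likeness. Of 9686 genes above background on all 8 arrays, 5486 (56.6%) had a 95% interval of the difference within 2-fold, 3942 were called and 659 were neither. The first of these counts includes 401 genes that were also called, with a difference between 1.5-fold and 2-fold. With a stricter limit of 1.5-fold, 2443 genes were alike. Without MaSC-enriched pools 3 and 4 the count within 2-fold was 5374, and with only the stromal array of pool 3 it was 3389.

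A smaller group set stroma and MaSC-enriched cells together apart from the luminal epithelium. In 1 contrast of their pooled mean against the pooled mean of both luminal subsets, 2414 genes were higher (14.8%) and 2560 were lower (15.7%). Of the first, 158 were also alike within 2-fold in stroma and MaSC-enriched cells and lay, on all 8 arrays, above all 10 luminal arrays. Membership used these values, so they are described and not tested again. The 12 with the largest difference from the luminal subsets were Cacna2d1, Fam180a, Tril, Enc1, Dkk3, Nkd2, Slc1a3, Pdpn, Col4a2, Aoc3, Adamts1 and Col18a1, with log2 differences from luminal of 3.99 to 5.10. Pdpn, podoplanin, a mucin-type glycoprotein of mesenchymal and basal cells, was at 13.56, 13.37 and 13.62 on the stromal and 13.95, 13.91, 13.13, 14.10 and 14.08 on the MaSC-enriched arrays, while the luminal arrays lay between 8.35 and 11.12. The glycoprotein gene Dkk3 was at 12.44, 12.14 and 12.63 on the stromal and 13.24, 12.39, 11.23, 12.05 and 12.84 on the MaSC-enriched arrays, against at most 9.15 on a luminal array. Nkd2, an inhibitor of Wnt signalling, was at 10.35, 9.96 and 10.46 on the stromal and 10.05, 11.04, 9.84, 9.15 and 10.59 on the MaSC-enriched arrays. Cacna2d1, a calcium channel subunit, differed from the luminal subsets most, at 10.38, 10.39 and 10.37 on the stromal and 11.32, 10.45, 9.80, 10.66 and 10.96 on the MaSC-enriched arrays, against at most 8.34. Its likeness holds for the brightest probe only, as 1 of its 3 kept probes was called higher in stroma.

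Of the 24 basement membrane genes, 3 belonged to the 158, which were drawn from 16324 genes tested. Col4a1 was at 14.05, 14.07 and 14.26 on the stromal and 13.91, 13.99, 14.01, 14.62 and 14.18 on the MaSC-enriched arrays, Col4a2 at 13.17, 13.23 and 13.67 on the stromal and 13.39, 13.24, 13.37, 14.27 and 13.63 on the MaSC-enriched arrays and Col18a1, whose product yields endostatin, at 13.35, 13.90 and 13.80 on the stromal and 13.81, 13.69, 13.51, 13.31 and 13.91 on the MaSC-enriched arrays. Luminal arrays reached at most 12.49, 11.53 and 11.37. The matrix protease gene Adamts1 and the amine oxidase gene Aoc3 were in the same group, at 11.96, 11.85 and 11.66 on the stromal and 12.25, 11.97, 11.68, 10.28 and 11.59 on the MaSC-enriched arrays and at 12.85, 12.70 and 12.68 on the stromal and 12.96, 12.14, 12.55, 12.68 and 13.62 on the MaSC-enriched arrays. Outside the 12, and chosen after their values were seen, the growth factor gene Vegfc lay at 10.20 to 11.02 in stroma and 10.15 to 10.69 in MaSC-enriched cells, the adhesion molecule gene Vcam1 at 11.23 to 11.50 and 10.96 to 12.08, and the gap junction gene Gja1 at 14.42 to 14.67 and 14.12 to 14.74, each above the luminal maximum of 9.43, 10.45 and 13.74. Egr2 also belonged to the 158 genes. The collagen chaperone gene Serpinh1 belonged too but was called 1.56-fold higher in stroma, inside the limit of 2-fold.

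Of the 2560 genes lower in the pooled contrast, 203 were alike within 2-fold in stroma and MaSC-enriched cells and lay below all 10 luminal arrays. Only genes above background on all 8 arrays could be alike, so luminal genes at background in either fraction are not counted. Cited1, a transcriptional coregulator of luminal cells, lay at 7.43 to 8.13 in stroma and 7.15 to 9.66 in MaSC-enriched cells, against 10.58 to 13.02 on luminal arrays. Wnt4, a ligand that acts downstream of progesterone, lay at 6.77 to 7.98 and 6.43 to 7.80, against 9.48 to 11.87. The claudin gene Cldn7 lay at 6.32 to 6.99 and 6.07 to 8.24, against 9.18 to 10.19, and the desmosomal plakophilin gene Pkp2 at 6.79 to 7.95 and 6.87 to 9.24, against 10.77 to 11.35. These 4 were chosen after their values were seen. In each the highest MaSC-enriched array was that of pool 3 or 4. Membership is a rule on every array, which leaving out any arrays loosens. There were, without MaSC-enriched pools 3 and 4, 403 genes below and 231 above. With only the stromal array of pool 3 the counts were 134 and 80, and in the first hybridization batch alone 448 and 270.

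**Figure D5:**
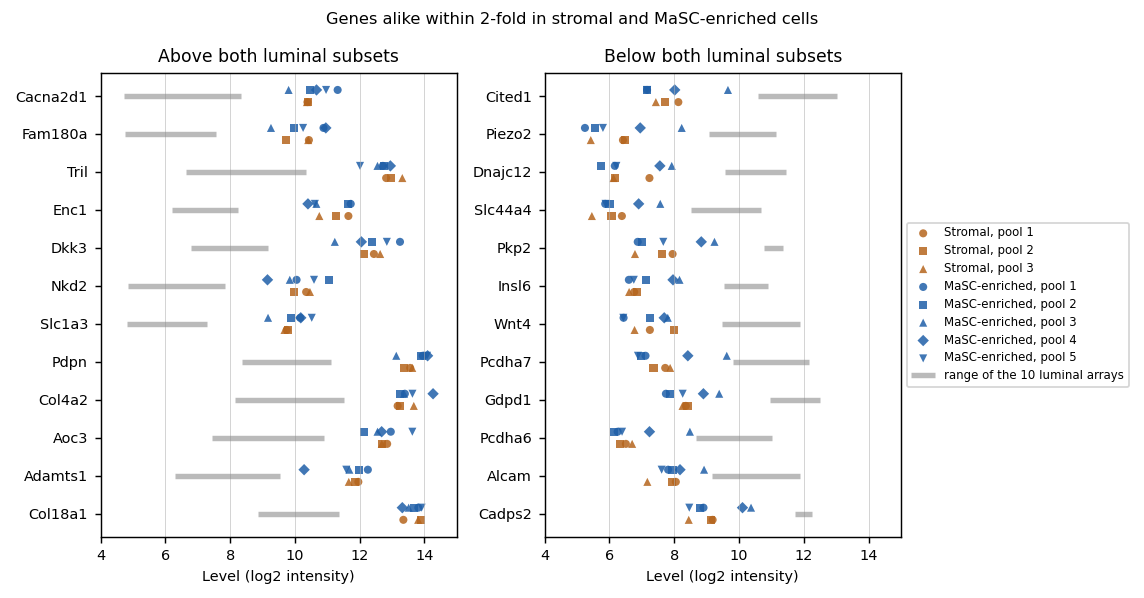
Level on each array (horizontal axis, log2 intensity) of the 12 genes with the largest difference from the luminal subsets among those alike within 2-fold in stromal (brown) and MaSC-enriched (blue) cells, above luminal on the left and below luminal on the right, with the range of the 10 luminal arrays in grey. On the left all 8 arrays lie above the grey bars, and on the right MaSC-enriched pool 3 often lies nearest to them.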

How the data were processed

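RNA of FACS-sorted mammary cells was hybridized to Illumina MouseWG-6 BeadChips. The deposited log2 values had been made by the authors with normexp background correction and quantile normalization using control probes (neqc). A deposited table of raw intensities was not used, because its 18 columns could not be assigned to samples. Signal depth of an array has no read count, and the number of arrays limits the precision.

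Of 45281 probes, 35587 above background on at least 1 array were kept. Background was the median plus the upper 1% normal quantile of the receptor probes (1492 probes). Platform annotation gave 34885 probes 1 gene symbol, 18 several and 10378 none, and a gene was read from its brightest kept probe. Of 2666 called genes with more than 1 kept probe, 1078 had all their probes called the same way. In 28 genes, probes were called in opposite directions. Calls and folds therefore hold for the probe read, and other probes of the gene can differ. The fit (limma 3.58.1, R 4.3.3) used all 18 arrays, array weights, the mouse pool as random block (same-numbered arrays come from the same pool by the labels, with residual correlations of 0.146, 0.156 and -0.051), and Benjamini-Hochberg adjustment over 6 pairwise contrasts. Genes were named by rule: sort antigens, the 12 largest differences each way, up to 4 leading and any opposing called members of each list, the 12 leading shared genes, and factors the study names for MaSC-enriched cells. Other list members given with values (such as Acta2, Krt14, Myl9, Oxtr, Zeb1, Zeb2, Cdh5, Emcn, Csn2, Rgs5, Kcnj8 and Serpinh1) were chosen after their values were seen. The lists and members were chosen with earlier results of these data known. The fit was first tested on simulated data. Alternatives covered background filter, weights, block, batch, BeadChip, fold test, adjustment, arrays in the fit and single replicates.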

Additional observations from a re-analysis of the deposited data

Results flagged for a closer look

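Among the 200 named genes, the levels of the 5 MaSC-enriched arrays were searched for a single array far from the others (gap over range, Dixon's limit at 95%), and 13 genes had one. Chance gives about 1 in 20 groups. In 7 of the 13 the array was MaSC-enriched replicate 3, and it was the low one each time: Cdh3 at 10.1 with the next array at 11.5, Cxcl14 at 12.3 (next 13.5), Ecrg4 at 12.2 (next 13.5), Krt10 at 9.75 (next 10.4), Lamb3 at 12 (next 12.9), Pdpn at 13.1 (next 13.9) and Tagln at 9.96 (next 11.8). This array also had the lowest basal marker mean of its group, 11.1, with endothelial and luminal means of 11.6 and 11.2, and the part of other cell types in the low values was not tested.

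MaSC-enriched replicate 1 was low for the mitotic genes Aurka, at 7.19 (next 9.12), and Cdc20, at 9.35 (next 11.1), and its mitosis list mean of 8.19 was the lowest of its group. The same array was high for Itgb5, at 11.9 (next 11.6). Replicate 4 was high for Agrn, at 14.5 (next 14.3). Replicate 5 was low for Krt20, at 4.56 (next 5.04), where both values are at or below background, and high for Wnt10b, at 6.10 (next 5.23).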

How the results depend on the processing

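The probe counts of 4552 higher and 4622 lower in stroma fell to 2281 and 2092 when the 1.5-fold limit was part of the test. Without stromal pools 1 and 2, an alternative added after seeing the data, 2540 probes were lower, 3389 genes were alike and 80 were alike and above luminal. Fewer arrays widen every interval there. The first hybridization batch alone gave 270 alike and above luminal, and an interval within 1.5-fold gave 2443 alike and 52 above luminal. Leaving out single arrays gave 4313 to 4557 probes higher, 4090 to 4758 lower, 5031 to 5486 genes alike and 128 to 212 above luminal. The mouse pool as a fixed replicate block gave 4535 and 4753 probes, 5476 genes alike and 138 above luminal. With no replicate block the values were 4245, 4207, 5009 and 138, and with the arrays of pools 1 to 3 paired by pool 3881, 3770 and 5232. The pairing changed no count by over 1.5 times. Without array weights, 3932 probes were higher and 3757 lower in stroma, 4749 genes were alike and 121 were above luminal. Fits without luminal arrays have no value for the genes above luminal. Of 181 called named genes, 141 kept their call under every alternative run, and of 4599 alternative values 181 lost the call, 4 gained one and 0 reversed. Precision is limited by 3 stromal arrays and by signal near background, and folds are lower bounds only where every array of a fraction was at or below it.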
